A study of Mus musculus with 12 samples.

Results

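Nodal, Gdf3, Inhbb, Tdgf1, Lefty1, Lefty2 and Fgf4 encode the secreted signals of the Nodal branch of the TGF-beta family and the FGF ligand of pluripotent mouse cells, together with a co-receptor and the inhibitors of Nodal. These 7 genes, of 21905 protein-coding genes with coordinates and a level, were chosen by their symbols in the transcript tables, and every peak of 7 ChIP-seq lists that overlapped a gene body extended by 30 kb on each side was taken with its gene. The members lie on chromosomes 1, 6, 7, 9 and 10 of mm10, and 185 distinct peaks fell in their windows. Of these, 16 lay in the windows of both Lefty2 and Lefty1, which are neighbors on chromosome 1, and were counted with each.

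The study asked where the Paf1 complex, an elongation factor of RNA polymerase II (RNAPII), sits on genes and enhancers, and used its Ctr9 subunit for this. Mouse embryonic stem cells (mESCs) of the E14TG2a line and NIH3T3 cells, an established mouse fibroblast line, were both grown in GMEM with serum and LIF, and in both lines GFP had been knocked in at the Ctr9 gene, with a sorted pool of GFP-positive cells in place of single clones. The ChIP-seq lists are of Ctr9 and H3K27ac for each line and, for mESCs alone, of NELFA and of RNAPII phosphorylated at Ser5 (Ser5p) or Ser2 (Ser2p), where tagged Ctr9 and NELFA were pulled down with an anti-GFP antibody and the rest with an antibody of their own. NELFA and Ser5p were profiled in mESCs that carry GFP-tagged NELFA. Whether the cells used for H3K27ac, Ser2p and RNA-seq carried a tag is not given in the sources used here. Each of the 7 lists and each of the 2 RNA-seq tables comes from 1 library, so no value below has a replicate and no test was made.

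Nodal and its relatives bind activin receptors, which phosphorylate the transcription factors SMAD2 and SMAD3. Nodal needs the co-receptor Cripto, the product of Tdgf1, to signal, and the Lefty proteins block Nodal and are themselves induced by it, which closes a negative feedback loop. FGF4 acts through FGF receptors and the MAP kinase ERK and primes mESCs for differentiation. In the embryo, Nodal and FGF4 pattern the epiblast and the tissues around it, and Fgf4 is a classic target of OCT4 and SOX2. NELF holds RNAPII shortly after initiation, Ser5p marks initiating and paused RNAPII, Ser2p marks elongating RNAPII, and H3K27ac marks active promoters and enhancers.

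The RNA-seq tables hold 26400407 estimated counts in mESCs and 28849497 in NIH3T3 cells. The labels of both lines matched their markers, since 6 of 6 mESC markers (Pou5f1, Sox2, Nanog, Esrrb, Zfp42 and Klf4) had a higher level in mESCs and 6 of 6 fibroblast markers (Col1a1, Col1a2, Col5a1, Thy1, Pdgfrb and S100a4) a higher level in NIH3T3 cells. Peak numbers per list ran from 1675 for Ser2p to 44748 for Ctr9 in mESCs and from 22016 to 34241 for the lists of NIH3T3 cells. ChIP-seq depth is unknown, because no list gives reads. A peak's fold enrichment is the fragment pileup at its summit, the base with the most fragments, over the local background, and differences in it between libraries cannot be set apart from differences in depth and antibody.

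Sequences are shown for the places where the data bear on regulation of these genes. The enhancer of Fgf4 is known for a SOX site next to an octamer-like site, to which SOX2 and OCT4 bind together. Searched on both strands as CTTTGT and ATGCNAAT with 1 or 4 bases between them, this pair had a single match in the windows of the 7 genes, which span 0.473 Mb. The match lies at chr7:144864394-144864411 on the plus strand of mm10, with a spacing of 4 bases, in the 3′ UTR of exon 3 of Fgf4 and 3016 bp downstream of the transcript start. In the assembled genome the spacing of 4 bases had 150 matches and the spacing of 1 base 146, or 0.0567 and 0.0551 per Mb. Capitals mark the pair with its spacer, within 30 bases at chr7:144864388-144864417.
Fgf4 SOX and octamer pair: aaaactCTTTGTTTGGATGCTAATgggata

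This site lay inside the strongest Ctr9 peak of the gene and inside a Ser5p peak of mESCs. It lay in no H3K27ac, NELFA or Ser2p peak and in no peak of NIH3T3 cells. The Ctr9 and Ser5p peaks are 6318 bp and 4878 bp wide. Their summits lie away from the site, at 4870 bp and 4912 bp from the transcript start and past the transcript end. A match of letters describes the sequence and does not show that a factor binds it.

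Promoters of 300 bases, from 250 before to 50 after the start, were found in RefSeq (GRCm38) for 4 of the 7 genes, Nodal, Tdgf1, Inhbb and Fgf4, and not for Lefty1, Lefty2 and Gdf3. All 4 were identical to the genome at their coordinates. They are shown because NELFA had a summit within 1 kb of the start of Nodal, Tdgf1 and Fgf4 and no peak at Inhbb. The NELFA peak overlapped the promoter shown at Tdgf1 and Fgf4, and at Nodal it lay downstream of it. The promoters lie at chr10:61417722-61418021 (plus strand) for Nodal, chr9:110946109-110946408 (minus strand) for Tdgf1, chr1:119422199-119422498 (minus strand) for Inhbb and chr7:144861136-144861435 (plus strand) for Fgf4. Capitals mark matches on either strand to a GC box (GGGCGG) or a SOX site (ACAAAG). The other motifs had no match in these 4 windows. They were the octamer ATGCAAAT, a FOXH1 site written AATCCACA, a SMAD site written GTCTAGAC, a KLF site written GGGTGTGG, the TATA box TATAAA, and a TCF site written ATCAAAG, whose last letters overlap those of the SOX site.
Nodal promoter: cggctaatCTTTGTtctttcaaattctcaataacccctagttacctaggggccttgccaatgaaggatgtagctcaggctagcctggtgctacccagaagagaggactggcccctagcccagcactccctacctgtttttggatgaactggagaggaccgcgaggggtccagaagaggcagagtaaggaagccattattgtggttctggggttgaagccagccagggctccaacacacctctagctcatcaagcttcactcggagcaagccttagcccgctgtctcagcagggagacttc
Tdgf1 promoter: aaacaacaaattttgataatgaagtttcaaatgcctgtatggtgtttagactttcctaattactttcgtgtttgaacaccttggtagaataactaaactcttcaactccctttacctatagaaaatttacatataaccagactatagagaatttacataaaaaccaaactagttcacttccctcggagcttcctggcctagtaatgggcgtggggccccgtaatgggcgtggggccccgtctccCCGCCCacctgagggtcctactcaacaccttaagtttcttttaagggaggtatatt
Inhbb promoter: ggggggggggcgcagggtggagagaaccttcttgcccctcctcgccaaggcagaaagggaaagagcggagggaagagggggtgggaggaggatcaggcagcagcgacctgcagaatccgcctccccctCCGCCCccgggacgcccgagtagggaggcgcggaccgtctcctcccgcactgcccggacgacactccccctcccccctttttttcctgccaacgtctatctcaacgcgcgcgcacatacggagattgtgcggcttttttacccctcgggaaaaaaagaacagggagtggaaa
Fgf4 promoter: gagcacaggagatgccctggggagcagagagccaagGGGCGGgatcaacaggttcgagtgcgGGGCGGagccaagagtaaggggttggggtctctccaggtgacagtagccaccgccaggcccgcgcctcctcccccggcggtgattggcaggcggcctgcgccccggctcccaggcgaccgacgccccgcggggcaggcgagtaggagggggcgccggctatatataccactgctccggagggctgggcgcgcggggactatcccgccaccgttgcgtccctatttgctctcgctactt

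GC boxes had 2 matches in the Fgf4 promoter, 1 in that of Tdgf1 and 1 in that of Inhbb, and 35.7% of 32851 RefSeq promoters held this motif. The SOX site had 1 match in the Nodal promoter and was held by 18.7% of all promoters. TATAAA was held by 13.6% of them. G and C made up 69.7% of the bases in the Fgf4 promoter, 64.3% in that of Inhbb, 54.0% in that of Nodal and 41.7% in that of Tdgf1, against a median of 52.7%. The promoters that a NELFA peak overlapped, those of Fgf4 and Tdgf1, had the highest and the lowest GC content of the 4.

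The level of a gene is given in TPM, which scales estimated counts for transcript length and library size, and is that of its transcript with the highest value, as the study defined it. All 7 genes were expressed in mESCs, and 6 were listed at 0 in NIH3T3 cells. Of all 21905 protein-coding genes, 7259 were listed at 0 in NIH3T3 cells and 5747 in mESCs. A difference of at least 1 in log2(TPM + 1), or 2-fold, in favor of mESCs was found for all 7 and for 13.5% of all protein-coding genes. In bulk RNA, fewer cells with a transcript and less transcript per cell cannot be told apart. Intervals below are 95% exact Poisson intervals on the estimated counts and cover counting error only, as does the floor of 3 counts in the NIH3T3 library that gives the lower bounds of fold changes.

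Among the ligands of the Nodal branch, Nodal (chromosome 10 from 61417972 to 61425338, plus strand) had 50.4 TPM in mESCs (48.3 to 52.5, 2242 estimated counts) and was listed at 0 in NIH3T3 cells, at least 686-fold lower. Gdf3, a GDF ligand that acts with Cripto (chromosome 6 from 122605403 to 122610087, minus strand), had 68.9 TPM (66.4 to 71.3) and was the only member with any count in NIH3T3 cells. That value was 0.0210 TPM from 1.00 estimated count, a ratio of 3277 with a counting interval of 589 to 129685. Inhbb, which encodes the beta subunit of activin B (chromosome 1 from 119415465 to 119422248, minus strand), was the lowest of the 7 with 21.8 TPM (20.9 to 22.8), at least 636-fold above NIH3T3 cells. On the log2(TPM + 1) scale the differences were 5.68 for Nodal, 6.10 for Gdf3 and 4.51 for Inhbb.

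The co-receptor gene Tdgf1 (chromosome 9 from 110939603 to 110946158, minus strand) had the highest level, 784 TPM (774 to 793, 27293 estimated counts), and ranked 115th of all protein-coding genes in mESCs. It was at least 9753-fold lower in NIH3T3 cells, and its log2 difference of 9.62 was the largest of the 7. The inhibitor genes came next. Lefty2 (chromosome 1 from 180893108 to 180899103, plus strand) had 246 TPM (242 to 251) and Lefty1 (chromosome 1 from 180935022 to 180938400, plus strand) 201 TPM (196 to 206), and both were listed at 0 in NIH3T3 cells. Their lower bounds were 4023-fold and 2050.4-fold, and the log2 differences 7.95 and 7.66.

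Lefty2 was thus 1.23 times Lefty1, and their summed level was 447 TPM. The paralogs are near-identical in part, and this limits the split between them. Of the 31-base words of the Lefty1 transcript, 25.0% also occur in another gene, all of them in Lefty2, and 17.6% of those of Lefty2 occur in another gene. Tdgf1 shares 17.4% of its words with the pseudogene Tdgf1-ps1, Gdf3 shares 3.29% with other genes, Nodal 0.194%, and Inhbb and Fgf4 none. Reads from the shared stretches are divided by estimation, which the Poisson intervals do not cover.

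Fgf4 (chromosome 7 from 144847367 to 144865243, plus strand) had 146 TPM (143 to 149, 9158 estimated counts) and was listed at 0 in NIH3T3 cells, at least 2974-fold lower, with a log2 difference of 7.20. Nearly all of it came from the transcript that starts at 144861386, with 99.4% of the gene's TPM. The other transcript of the gene, which starts upstream and extends the gene record to 144847367, had 0.857 TPM. In Tdgf1 and Gdf3 the highest transcript held 95.6% and 95.1% of the gene's TPM, and in the other 4 genes 100% or the only transcript listed.

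The order of the levels in mESCs was Tdgf1, Lefty2, Lefty1, Fgf4, Gdf3, Nodal and Inhbb, and no counting intervals of neighbors in this order overlapped. The steps between neighbors ran from 1.23-fold for the Lefty genes to 3.18-fold between Tdgf1 and Lefty2. Without replicates, the spread between cultures is unknown, and whether neighbors differ beyond it could not be assessed. The inhibitors and the co-receptor thus had higher TPM than the ligands of their own branch in this library.

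**Figure D1:**
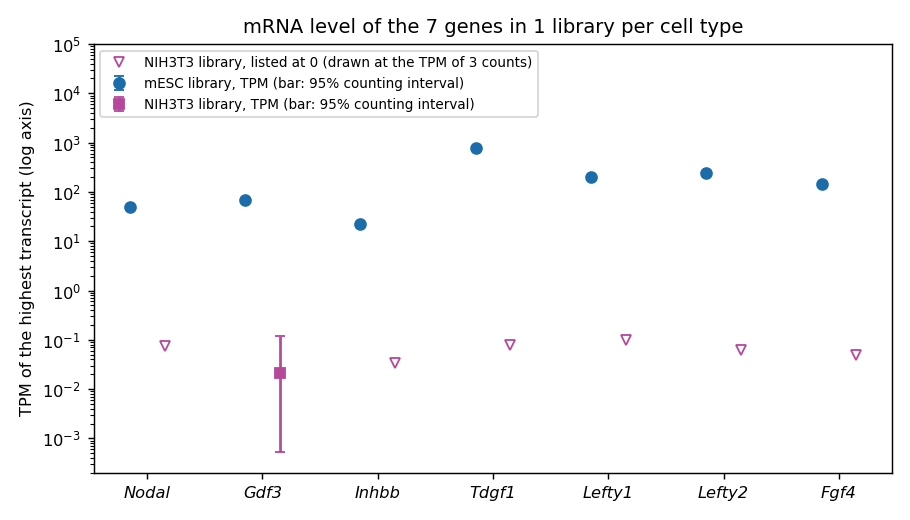
TPM of the highest transcript (log axis) for the 7 genes, with circles for the mESC library and squares or open triangles for the NIH3T3 library, bars for 95% counting intervals, and triangles at the TPM of 3 counts where NIH3T3 is listed at 0. The mESC values run from 21.8 (Inhbb) to 784 (Tdgf1), and in NIH3T3 cells only Gdf3 has a value, 0.0210.

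Peaks of Ctr9, Ser5p and Ser2p in mESCs were found within 30 kb of all 7 genes. Among all protein-coding genes the shares with such a peak were 56.8% for Ctr9, 22.2% for Ser5p and 13.0% for Ser2p. NELFA had a peak within 30 kb of 6 genes, all but Inhbb, against 19.0% of all genes, and H3K27ac in mESCs also of 6, all but Inhbb, against 61.0%. In NIH3T3 cells Ctr9 had a peak within 30 kb of 2 genes, Nodal and Lefty2, against 38.4% of all genes, and H3K27ac of 5, against 68.0%. Many of these peaks belong to other genes in the windows, so peaks at the gene itself are the closer description.

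Within 1 kb of the gene body, Ctr9 had a peak in mESCs at all 7 genes, against 39.5% of all genes, and the peaks numbered from 1 at Lefty1 and Gdf3 to 6 at Nodal and Inhbb. Ser5p was also found at 7, against 11.6%, and Ser2p at 7, against 5.72%. NELFA was found at 5, all but Lefty2 and Inhbb, against 9.34%. H3K27ac was found at 3, Nodal, Gdf3 and Fgf4, against 40.6%. The members are all well expressed, and of the 4264 genes with at least 20 TPM in mESCs, 84.4% had a Ctr9 peak, 34.0% a Ser5p peak, 16.5% a Ser2p peak, 27.6% a NELFA peak and 88.3% an H3K27ac peak at the gene. Against all genes with at least 20 TPM, the shares for Ser5p, Ser2p and NELFA were higher at the 7 genes and that for H3K27ac was lower. That for Ctr9 was near the background. The members ranked from 115th (Tdgf1) through 1402nd (Gdf3) to 3996th (Inhbb), so most lie high in that set. A background of closer level was not made, and whether the shares differ at equal level was not tested. In NIH3T3 cells Ctr9 was found at 1 gene, Nodal, against 22.3% of all genes, and H3K27ac at none, against 52.4%.

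**Figure D2:**
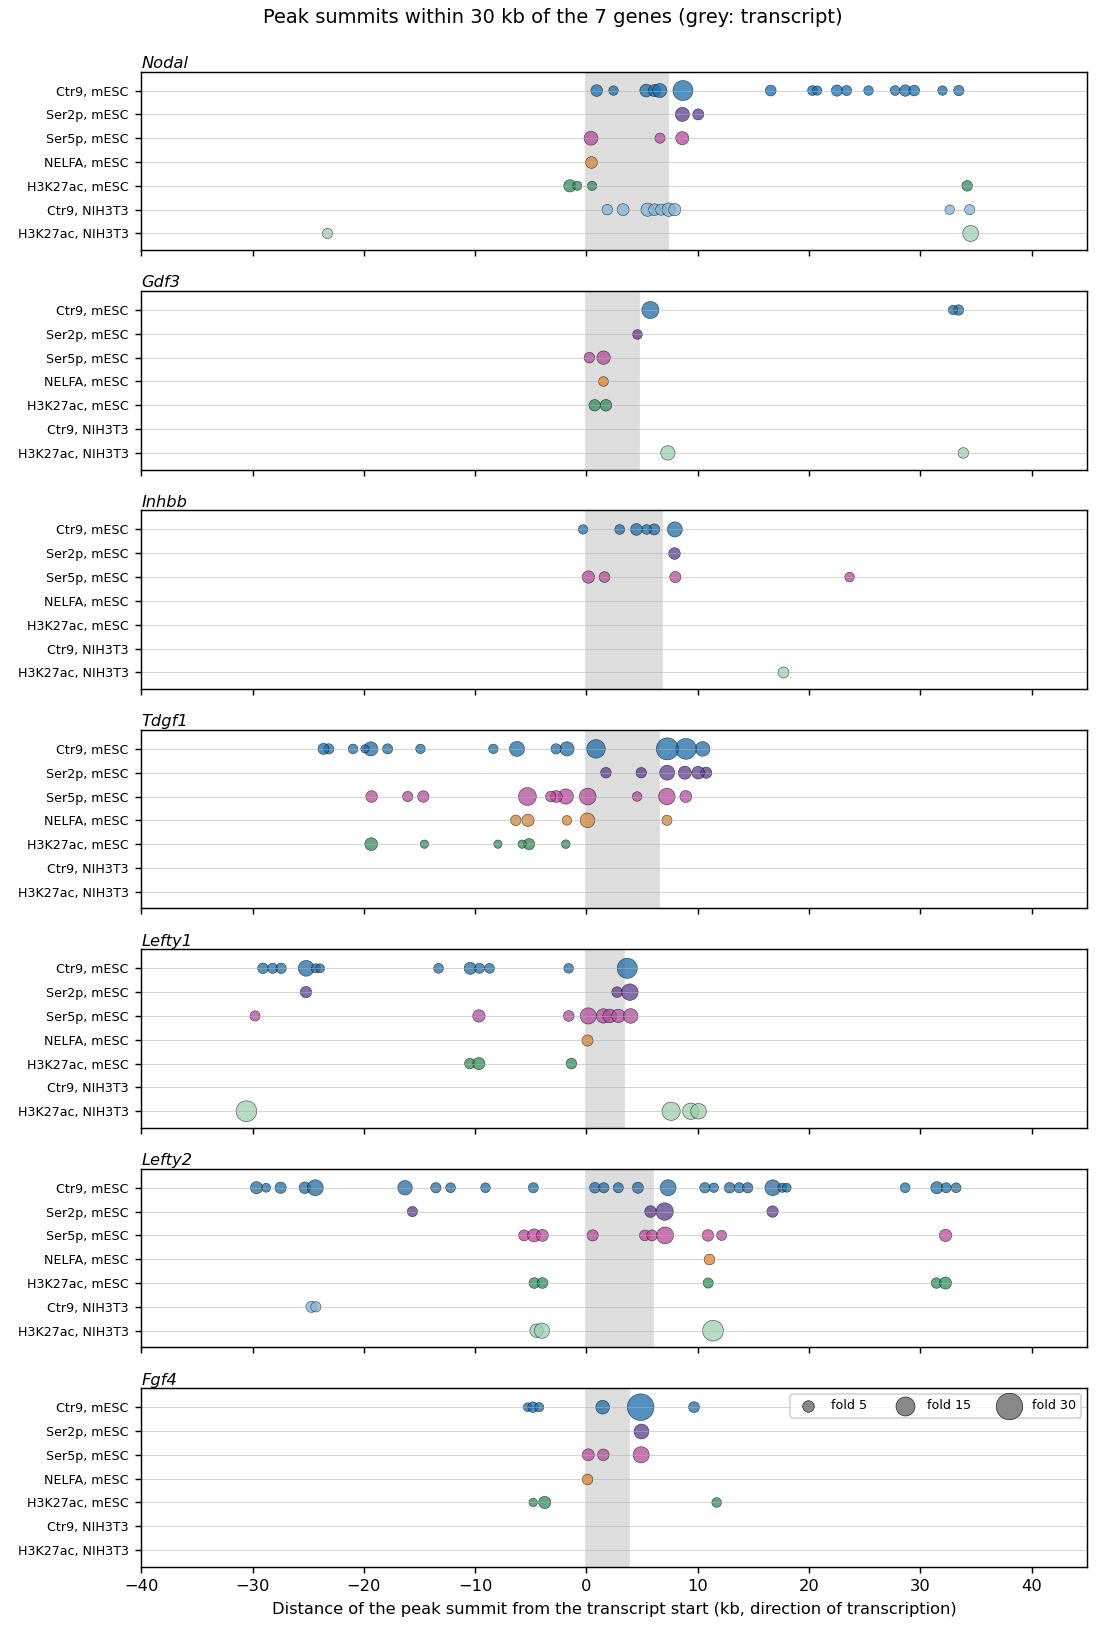
Summits of all peaks in the windows of the 7 genes, by distance from the start of the highest mESC transcript (kb, positive in the direction of transcription), 1 line per list, with the area of each circle growing with fold enrichment and the transcript in grey. The largest circle, Ctr9 at Fgf4 (30.2-fold), lies past the end of the transcript, and the NIH3T3 lines of Tdgf1 and Fgf4 are empty.

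Distances below are those of the summit from the start of the highest mESC transcript, with negative values upstream. At Nodal, NELFA had 1 peak with a fold enrichment of 5.13 at 428 bp, in coding exon 1, and Ser5p reached 7.62 at 403 bp. Ctr9 had 5 peaks with summits in the gene body, of 3.08 to 7.77, and its strongest peak of 16.7 lay at 8666 bp, past the end of the gene. That peak was 6272 bp wide and reached into Eif4ebp2, a translation repressor gene on the opposite strand whose end lies 3153 bp from the end of Nodal and which had 67.6 TPM in mESCs. Ser2p was strongest at 8610 bp with 7.80. H3K27ac had its strongest peak at -1495 bp with 5.71 and further peaks at -822 bp (2.82) and 501 bp (2.83).

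Gdf3 had its strongest NELFA and Ser5p summits further inside the gene than Nodal. NELFA (3.34 at 1452 bp) and Ser5p (7.03 at 1535 bp) both had their strongest summit in the intron, and a weaker Ser5p peak of 4.08 lay at 263 bp in coding exon 1. H3K27ac reached 5.04 at 1749 bp and 4.84 at 734 bp, both in the intron. The only Ctr9 peak at the gene was 7821 bp wide, with 12.0 at 5740 bp, past its end, and reached over the start of Apobec1, an RNA editing gene on the same strand that starts 2959 bp past the end of Gdf3 and had 3.10 TPM. Ser2p was weakest here of the 7 genes, with 3.26 at 4580 bp in the 3′ UTR, and only 4.24% of the peaks in that list had this value or a lower one.

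Inhbb, the member of lowest level, had no NELFA and no H3K27ac peak within 30 kb. Ser5p reached 5.81 at 168 bp in the 5′ UTR and 4.19 at 1618 bp in coding exon 1. Ctr9 had 6 peaks at the gene, from 3.01 at -308 bp to 9.09 at 7934 bp past the end, and this strongest value was the lowest of the 7 genes. Ser2p had 1 peak, of 5.08 at 7838 bp.

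At Tdgf1, which had the highest mRNA level, NELFA reached 8.60 at 88 bp and Ser5p 11.4 at 110 bp, both in the 5′ UTR, and this was the strongest NELFA peak of the 7 genes. Ctr9 had 14.2 at 857 bp in an intron and 20.4 at 7268 bp, past the end, which ranked 170th of 44748 peaks. Further past the end Ctr9 had peaks of 18.0 at 8938 bp and 8.51 at 10432 bp, and Ser2p had peaks at 8832 bp, 10033 bp and 10750 bp of 6.65, 6.24 and 4.69. Upstream, Ser5p reached 13.2 at -5307 bp and NELFA 5.79 at -5253 bp, near the start of Lrrc2, which runs the other way from 5387 bp upstream and had 14.6 TPM in mESCs and 0.0573 in NIH3T3 cells. H3K27ac had 6 peaks, all upstream, with 4.75 at -5157 bp and the strongest, 6.32, at -19337 bp inside Lrrc2, and none at the Tdgf1 gene itself.

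The inhibitor genes differed from each other in their polymerase peaks. These paralogs share part of their transcript sequence, as given above, and its effect on the ChIP-seq peaks was not tested. Lefty1 had its strongest Ser5p peak at the start, 10.6 at 157 bp, with NELFA of 4.55 at 73 bp in the 5′ UTR and Ser5p peaks of 7.08 to 8.46 through the gene to 3964 bp. Lefty2 had no NELFA peak at its gene. Its Ser5p peak near the start had 4.57 at 558 bp, and its strongest, 11.6, lay at 7061 bp, past the end. Ctr9 reached 16.8 at 3661 bp for Lefty1, in a peak 5279 bp wide, and 10.3 at 7331 bp for Lefty2. Ser2p was stronger at the Lefty genes than at the other 5, with 12.5 at 7020 bp for Lefty2 and 11.1 at 3894 bp for Lefty1, ranks 39 and 71 of 1675 peaks.

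H3K27ac lay outside the bodies of both Lefty genes. Upstream of Lefty1 it had 4.12 at -1354 bp, 5.58 at -9667 bp and 3.95 at -10480 bp, and the peaks at -9667 bp and -10480 bp were also within 30 kb of Lefty2. Upstream of Lefty2 it had 4.22 at -3951 bp and 4.12 at -4688 bp. Ctr9 (5.59 at -10442 bp) and Ser5p (5.86 at -9664 bp) had peaks near these sites. The 300 bases around that H3K27ac summit, at chr1:180925206-180925505 of mm10 on the plus strand, are shown because this was the strongest acetylated site of both genes. Capitals mark the only motif found, a SOX site on the minus strand, which 18.9% of the windows around 19305 H3K27ac summits of mESCs held.
Lefty1 and Lefty2 upstream site: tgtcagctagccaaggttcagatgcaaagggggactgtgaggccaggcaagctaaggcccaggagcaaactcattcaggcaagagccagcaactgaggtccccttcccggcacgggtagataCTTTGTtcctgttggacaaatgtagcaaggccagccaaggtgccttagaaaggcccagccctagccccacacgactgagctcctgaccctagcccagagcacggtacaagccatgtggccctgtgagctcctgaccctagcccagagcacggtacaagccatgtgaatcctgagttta

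Fgf4 had the strongest Ctr9 peak of the 7 genes. It was 6318 bp wide with a fold enrichment of 30.2 at 4870 bp and a −log10 q of 200.2, ranked 36th of 44748 peaks, and held the SOX and octamer pair shown above. Ser5p (10.6 at 4912 bp) and Ser2p (8.84 at 4909 bp) had their strongest summits close to it. At the start, NELFA had 4.13 at 6 bp and Ser5p 5.42 at 159 bp, both in exon 1. H3K27ac was strongest at -3753 bp with 5.68, and a peak of 2.24 lay at -4789 bp. Both are at the gene only through the longer transcript, and none of the 3 H3K27ac summits in the window lay within 1 kb of the start of the main transcript. Fgf3, the FGF gene upstream, had 0.428 TPM, so the levels of these neighboring FGF genes were far apart.

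**Figure D3:**
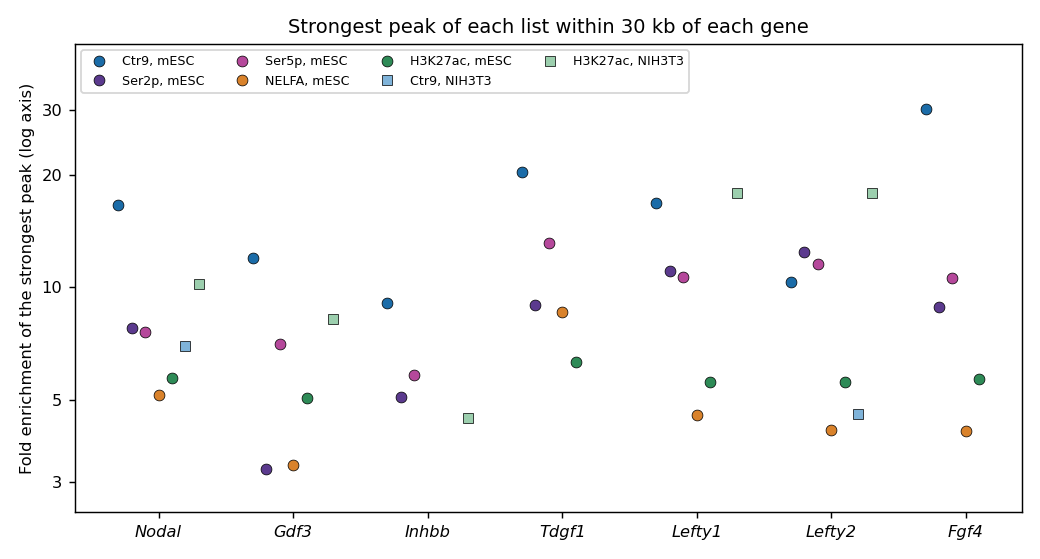
Fold enrichment (log axis) of the strongest peak of each of the 7 lists within 30 kb of each gene, with circles for mESC and squares for NIH3T3 lists and no symbol where a list had no peak. Ctr9 in mESCs runs from 9.09 (Inhbb) to 30.2 (Fgf4), and Inhbb has no NELFA and no H3K27ac symbol for mESCs.

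The strongest summit from 1 kb upstream to 5 kb downstream of each transcript was compared across lists. For Ctr9 it lay past the 3′ end at 7 of 7 genes, by 283 bp (Lefty1) to 1336 bp (Lefty2) with a median of 1056 bp, and of 9196 genes with a Ctr9 summit 65.1% had this order. For Ser2p it lay past the end at 6 of 7 genes, with Gdf3 at -104 bp, and 60.4% of 1414 genes did. Ser5p had its strongest summit past the end at 2 of 7 genes, Lefty2 and Fgf4, and at 26.4% of 2545 genes. For NELFA this was so at none of the 5 genes with a summit and at 14.7% of 2077 genes. The strongest NELFA summit lay within 1 kb of the start at 4 of 5 genes, against 80.6% of the 2077 genes, and the strongest Ser5p summit at 4 of 7, against 58.5% of the 2545 genes. The members thus followed the usual placement of these lists, in which summits of Ctr9 and Ser2p past the end are in the majority.

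Ctr9 and Ser2p summits in that stretch lay 20 bp apart at Tdgf1, 39 at Fgf4, 56 at Nodal, 96 at Inhbb, 233 at Lefty1, 311 at Lefty2 and 1160 at Gdf3. The median was 96 bp, and 152 bp over the 1411 genes with both. NELFA and Ser5p summits lay 22 bp apart at Tdgf1, 25 at Nodal, 83 at Gdf3 and 84 at Lefty1, and 4906 bp apart at Fgf4, where the strongest Ser5p summit was past the end. Over 1323 genes with both the median was 80 bp.

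**Figure D4:**
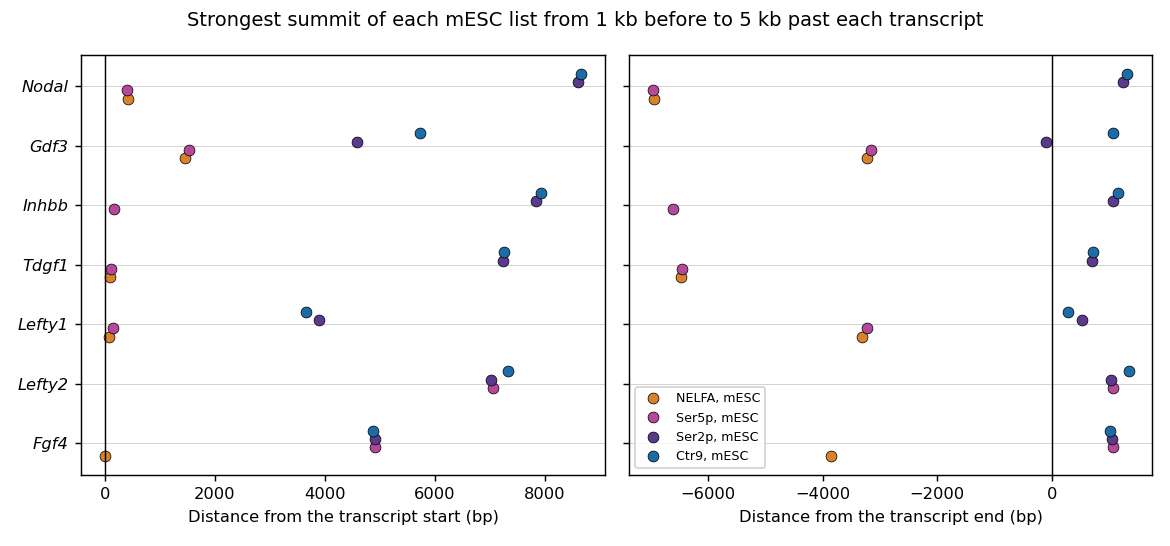
Distance (bp) of the strongest NELFA, Ser5p, Ser2p and Ctr9 summit of mESCs from the transcript start (left) and end (right) of each gene, in the window from 1 kb before to 5 kb past the transcript. All 7 Ctr9 summits lie right of the end, by 283 to 1336 bp, and no NELFA summit does.

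The overlap of Ctr9 and H3K27ac peaks in the windows of the members was set beside that in the whole lists, as a description without a test. The share was above that of the whole lists in mESCs. In NIH3T3 cells 1 overlap among 11 peaks is too few to place it above or below them. In mESCs, 16 of 21 H3K27ac peaks (76.2%) overlapped a Ctr9 peak by at least 1 bp, against 23.1% of all 19417. Of 76 Ctr9 peaks, 12 (15.8%) overlapped an H3K27ac peak, against 9.30% of all 44748. In the windows in NIH3T3 cells 1 of 11 H3K27ac peaks and 1 of 11 Ctr9 peaks did, a share of 9.09% each, against 12.7% of all 34241 H3K27ac peaks and 21.7% of all 22016 Ctr9 peaks.

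The study used published super enhancers (SEs), which are stretches with dense binding of activators, and some of them lie within 30 kb of Lefty1, Lefty2, Tdgf1, Fgf4 and Inhbb. The SE near Tdgf1 met 6 Ctr9, 5 H3K27ac, 3 NELFA and 6 Ser5p peaks of mESCs. That of Lefty1, which is also within reach of Lefty2, met 4 Ctr9, 3 H3K27ac and 2 Ser5p peaks, and a further SE upstream of Lefty2 met 1, 2 and 2. At Fgf4 the SE met 5 Ctr9, 2 H3K27ac, 1 NELFA and 3 Ser5p peaks, although the summit of the 30.2-fold Ctr9 peak lay outside it and the strongest Ctr9 summit inside had 7.36. The SE near Inhbb met no Ctr9, H3K27ac, NELFA or Ser2p peak and 1 Ser5p peak of 3.23. No Ser2p peak met any of these SEs. The Ser2p list holds 1675 peaks, and the NELFA list, which met the SEs near Tdgf1 and Fgf4, holds 1980. The reason was not tested. The study reported Ser2p at most SEs, and its calls for the SEs named here were not compared. The share of all SEs that met each list, and the share of all genes with an SE within 30 kb, were not computed here.

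In NIH3T3 cells the window of Nodal stood apart from those of the other members. Ctr9 had 7 peaks at the gene, from 1871 bp to 7924 bp, of which the strongest reached 6.96 at 7385 bp and the next 6.76 at 5486 bp in coding exon 2. Nodal itself was listed at 0 there, while Eif4ebp2, its neighbor on the opposite strand, had 53.3 TPM. Each of these peaks overlapped a Ctr9 peak of mESCs, as with summits at 5486 bp and 6111 bp in NIH3T3 cells and 5368 bp and 6114 bp in mESCs. ChIP-seq peaks carry no strand, so in both lines whether the Ctr9 peaks at Nodal belong to Nodal or to Eif4ebp2 cannot be told apart. H3K27ac had no peak at Nodal in NIH3T3 cells, and its peak of 10.2 at 34511 bp lay in Eif4ebp2. At Lefty2, H3K27ac had peaks of 7.12 at -4478 bp and 9.29 at -4003 bp in NIH3T3 cells, close to those of mESCs at -4688 bp and -3951 bp, although the gene was listed at 0. Further H3K27ac peaks of NIH3T3 cells in the windows lay in Tmem63a (13.8) and Apobec1 (8.22), and Tdgf1 and Fgf4 had none within 30 kb.

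Among all protein-coding genes, 13.5% were at least 2-fold higher in mESCs and 11.3% in NIH3T3 cells. These shares are the background for the list counts that follow. Of 8 receptor genes of the Nodal and activin branch, 2 were at least 2-fold higher in mESCs and 2 in NIH3T3 cells. The median log2 difference was -0.0019 against 0 over all protein-coding genes. The activin receptor genes Acvr2b (10.8 TPM in mESCs, 1.83 in NIH3T3 cells) and Acvr1b (15.6 and 6.74) were higher in mESCs, and Tgfbr3 (0.336 and 50.4) and Tgfbr2 (1.36 and 14.8), which serve TGF-beta, in NIH3T3 cells. Of 6 transducers 1 was higher in mESCs, Foxh1, a partner of SMAD2 at Nodal targets, with 54.8 TPM and 0 listed in NIH3T3 cells, whereas Smad3 had 3.45 and 19.6. Of 8 genes for processing and antagonists 1 was higher in mESCs, Pcsk6, a proprotein convertase, with 18.3 TPM and 0 listed in NIH3T3 cells, and 3 in NIH3T3 cells, among them Furin with 5.08 and 28.7.

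Of 8 other ligand genes of the TGF-beta family, only Bmp4 was at least 2-fold higher in mESCs (120 and 0.0735 TPM), and 4 were higher in NIH3T3 cells, with Inhba, the activin A subunit gene, listed at 0 in mESCs and at 16.8 TPM in NIH3T3 cells. Nodal targets included 3 of 7 that were higher in mESCs, such as Skil (20.3 and 9.22 TPM), and none in NIH3T3 cells. The median log2 difference was 0.55, and Gsc, Foxa2 and Mixl1 were below 1 TPM in both lines.

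Of 8 other FGF ligand genes the highest in mESCs was Fgf15 with 5.03 TPM (0 listed in NIH3T3 cells). Fgf7, a ligand of fibroblasts for epithelia, had 0.102 TPM in mESCs and 168 in NIH3T3 cells. Of 5 receptor genes 3 were higher in NIH3T3 cells, with Fgfr1 at 9.53 and 23.6 TPM, and Fgfr4 (1.28 and 0 listed) was the only one higher in mESCs. Of 6 FGF target genes 3 were higher in mESCs, Spry4 (82.1 and 3.13 TPM), Etv5 (80.3 and 17.6) and Spry2 (149.6 and 36.1), and Egr1 was higher in NIH3T3 cells (15.9 and 73.6). Of 8 FGF transducer genes 1, Mapk3, which encodes an ERK, was higher in mESCs (52.3 and 24.5 TPM) and 2 were higher in NIH3T3 cells. Counts in such short lists were not tested against the shares of all genes, 13.5% higher in mESCs and 11.3% in NIH3T3 cells.

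In mESCs, a Ctr9 peak lay within 1 kb of 6 of 6 FGF target genes, 6 of 8 FGF transducer genes, 3 of 5 FGF receptor genes and 0 of the 8 other FGF ligand genes. In the Nodal and activin branch this was so for 4 of 6 transducer genes, 3 of 8 receptor genes, 3 of 8 other TGF-beta family ligand genes, 2 of 7 target genes and 1 of 8 genes for processing and antagonists. The background given above was 39.5% of all genes and 84.4% of genes with at least 20 TPM, and the FGF target genes had 15.9 to 149.6 TPM.

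For each member the protein-coding genes with the most similar profile were found over 9 values, the log2(TPM + 1) in both cell types and the log2 of the strongest fold enrichment within 30 kb plus 1 in each of the 7 lists, each divided by its SD. The distance is Euclidean, so that 0 would be an identical profile. Lefty1 was closest to Nanog (1.07) and Pou5f1 (1.33), Tdgf1 to Zfp42 (0.870) and Sox2 (1.15), and Fgf4 to Zfp42 (0.787) and Gtsf1l (1.06). Gdf3 was closest to Fbxo15 (0.732) and Zscan10 (0.757), and Nodal to Apoc1 (0.494) and Dmtn (0.839). Lefty2 was closest to Sept1 (1.04) and Dmtn (1.15), and Inhbb to Sigirr (0.904) and Pkp3 (1.21), which like it had no H3K27ac and no NELFA peak in mESCs within 30 kb. Nanog, Pou5f1, Sox2 and Zfp42 are pluripotency genes and are among the mESC markers named above, and the 9 values share libraries across all genes.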

How the data were processed

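A single ChIP-seq or RNA-seq library per target and cell type was used, 9 of 12 samples, and the 3 input libraries were not analysed here. Per the labels and the study's methods, the authors aligned ChIP-seq reads to mm10 with Bowtie2 2.3.5.1, removed blacklisted regions and called peaks on each library with MACS2 2.2.6. The deposited peak lists give a score, a fold enrichment (a ratio of pileup over local background) and −log10 p and −log10 q values, and the offset of the summit (other). The authors estimated transcript levels with kallisto on GENCODE, and deposited estimated counts and TPM, which sum to the same total in each library. Depth per library is known for RNA-seq only, as given above.

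Here, gene coordinates came from GENCODE M21, which matched 99.8% of 21938 protein-coding genes by identifier. Peaks were assigned by an overlap of at least 1 bp. The log2 differences, and the 2-fold call made on them, used a pseudocount of 1 TPM. The lower bounds of fold changes and the plain ratios of TPM used none. The scripts ran in Python 3.11.15, pandas 2.3.3, NumPy 2.4.6, SciPy 1.17.1 and Matplotlib 3.10.9. Helper functions were tested on simulated data. The genes named are the 7 members, their neighbors within 30 kb, the 2 most similar genes of each, and examples of the pathway lists, and the values of some of them are not reported here. The members and lists were chosen with earlier results of these data known. Samples were grouped by title, all comparisons are descriptions without a test, and the alternatives changed the window, the threshold on −log10 q, the overlap rule, the gene level and the pseudocount.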

Additional observations from a re-analysis of the deposited data

How the results depend on the processing

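Of 69 alternative values, 64 stayed within 1.5 times the main count, and 5 moved. In NIH3T3 cells the genes with a Ctr9 peak within 30 kb fell from 2 to 1 with a window of 10 kb, and to 1 without summits in other genes, and Nodal was the gene left. Those with an H3K27ac peak fell from 5 to 3 at 10 kb, and none at the gene became 3 with 1 kb upstream and 5 kb downstream. Ser2p peaks at the gene in mESCs went from 7 to 4 when the summit had to lie inside the window, since those of Nodal, Inhbb and Fgf4 lay past its edge. Within the 1.5 times limit, a −log10 q of at least 5 took NELFA from 6 to 4 genes within 30 kb. At the gene it took NELFA from 5 to 4 and Ser2p from 7 to 6. The NELFA peaks of Gdf3 and Lefty2 had a −log10 q of only 3.68 and 4.25. The number of genes at least 2-fold higher in mESCs stayed at 7 in each alternative that keeps the Lefty genes apart and was 6 with both taken as 1 gene, while the share of all genes went from 13.5% to 22.0% with a pseudocount of 0.1 and to 23.8% among genes with at least 1 TPM in either library. Limits of 2 kb and 10 kb past the transcript end, chosen after seeing the data, left Ctr9 at 7 genes and Ser2p at 6. No paired analysis was possible because each group has 1 library, and without replicates or ChIP-seq depth the error between cultures is unknown.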

Other observations

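The markers of other cell states that Nodal and FGF4 signals bear on had levels in mESCs below that of Inhbb, the lowest member with 21.8 TPM. Of 4 primed epiblast markers, Dnmt3b had 14.8 TPM, Otx2 7.30, Pou3f1 1.32 and Fgf5 0.331, and of 4 primitive endoderm markers, Sox7 had 6.04 TPM, Gata4 2.21, Gata6 0.249 and Sox17 0.146. At least 2-fold higher in mESCs than in NIH3T3 cells were 3 of the 4 primed epiblast markers, against 13.5% of all protein-coding genes. Of the 4 primitive endoderm markers, 1 was higher in mESCs and 1 in NIH3T3 cells. No gene of either list had a Ctr9 peak within 1 kb in either cell type. Of 6 mESC markers, all had a Ctr9 peak in mESCs, 3 a NELFA peak and 4 a Ser2p peak, whereas of the 7 members 7 had a Ctr9 peak, 5 a NELFA peak and 7 a Ser2p peak. Among all genes the shares were 39.5% for Ctr9, 9.34% for NELFA and 5.72% for Ser2p. Among genes with at least 20 TPM in mESCs they were 84.4%, 27.6% and 16.5%. Dppa3, a germ cell and pluripotency gene 16323 bp from Gdf3, had 1.23 TPM in mESCs and no peak of any list was assigned to it in the window of Gdf3.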
